A study of Drosophila melanogaster with 12 samples.

Results

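The transcripts of 33 spliceosome and splicing factor genes of *Drosophila melanogaster* were followed in pull-downs of Bag of marbles (Bam), the protein that switches daughters of female germline stem cells to differentiation. The genes were chosen by FlyBase name or synonym, not by a threshold on measured values although with earlier results of these data known, and all 33 were found among the 17737 genes of the RNA immunoprecipitation (RIP-seq) table. They cover 7 roles, from the Sm ring of the small nuclear ribonucleoproteins (snRNPs) to the SR proteins, and every one of them had counts in all 6 libraries. In the table of the companion RNA-seq, whose 6555 genes are those the authors selected in their comparison of genotypes, 17 of the 33 were present. That is 51.5% of the members, beside 53.5% of all RIP-seq genes with at least 1 count.

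RIP-seq used GFP-trap beads on lysates of whole ovaries pooled from many flies. The bait line, strain Bam-fTRG-GFP, carried a GFP-tagged *bam* transgene (3 libraries, called Bam-GFP). The control line, Bam-Gal4 ::UASp-GFP, made untagged GFP where the *bam* promoter drives Gal4 (3 libraries, called GFP control), so that in neither line does the label name a deletion of *bam*. RNA-seq was made from living germ cells sorted by GFP from ovaries of 3 vas-GFP; bam_delta86/bam_delta86 samples, which lack *bam*, and 3 vas-GFP samples, with GFP fused to the germ cell protein Vasa in both. The ages of the flies are not given in the sources used here, and nothing there says that replicates came from separate crosses or days, so that p-values measure only the spread between these libraries.

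Splicing removes introns from pre-mRNA in a cycle of large particles. The U1 snRNP pairs with the 5′ splice site, SF1 and both U2AF subunits bind the branch point and the acceptor site, and the U2 snRNP then takes over the branch point. The U4/U6.U5 tri-snRNP and the Prp19 complex join next and form the catalytic centre, while SR proteins bind exons and help to choose sites. In fly ovaries, splicing decides, among other things, the sex-specific form of *Sxl* in germ cells, and loss of the U1 and U2 protein Snf is known to leave female germ cells undifferentiated.

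The question put to the RIP-seq was which transcripts came down with Bam-GFP more than with GFP alone. Each library held between 7697440 and 12704088 counts on genes, and the 33 transcripts took 0.37 to 0.413% of them in Bam-GFP and 0.451 to 0.497% in GFP control. After scaling with TMM (trimmed mean of M-values, which sets libraries level over most genes) their summed CPM (counts over the scaled library total, times 1000000) were 4582, 3924 and 4411 in Bam-GFP and 4117, 4481 and 4469 in GFP control. The groups did not overlap in the raw share, and they overlapped after scaling. The *bam* transcript itself stood at 51.5, 50.1 and 46.8 CPM in Bam-GFP and at 16.7, 11.7 and 3.32 CPM in GFP control, a log2 fold change of 2.47 (SE 0.57, edgeR adjusted p = 0.00188). The bait line carries *bam* as a transgene, and input RNA was not analysed here. The difference goes with the labels, but more *bam* message in the lysate and binding to Bam-GFP cannot be told apart.

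None of the 33 transcripts passed the test between Bam-GFP and GFP control. With edgeR's quasi-likelihood test, adjusted over 10971 genes with at least 1 count, 0 members had an adjusted p under 0.05 in either direction, beside 1.72% of all genes tested that were higher and 0.474% that were lower. DESeq2 also called 0. At an unadjusted p under 0.05, 1 member was higher (*SRm160*, 3.03% of the members) and 2 were lower (*Sf3a2* and *Prp19*, 6.06%), beside 5.54% of all genes higher and 4.03% lower. All 3 Bam-GFP libraries lay above all 3 GFP control libraries for 1 member (*Prp6*), beside 6.40% of all genes, and below them for 2 (*SmD1* and *Prp19*), beside 7.24%. These shares are near those of all genes, and for the other 30 members the groups overlapped. The split of all genes at an unadjusted p under 0.05 depended on the scaling: it was 608 higher and 442 lower here, 367 and 765 with library size only, and 606 and 212 with library totals that also hold multi-mapped reads.

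**Figure D1:**
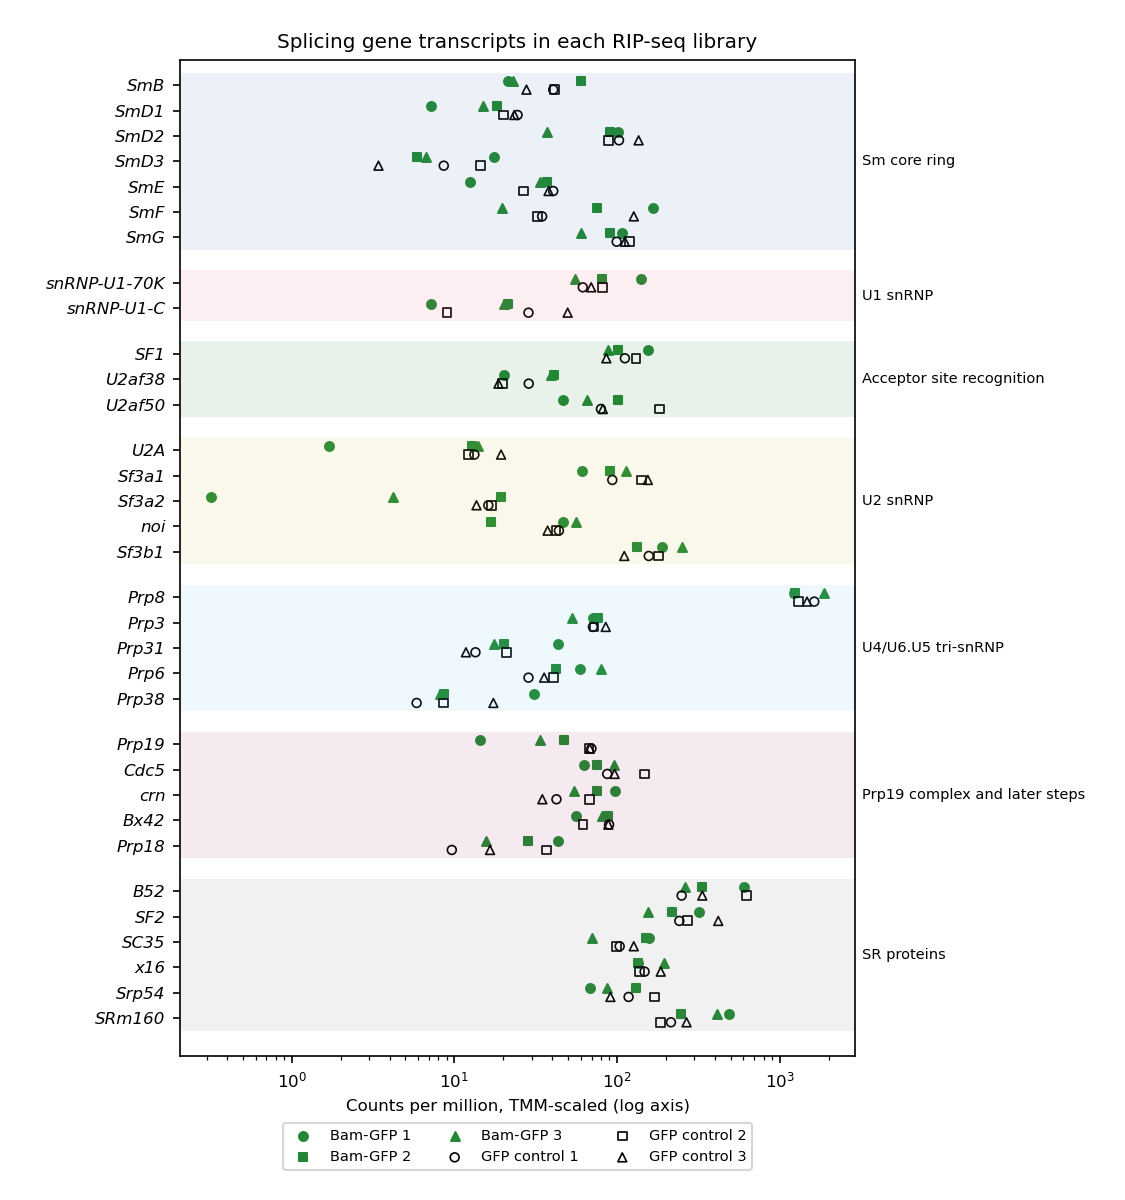
Level of each of the 33 transcripts in each RIP-seq library, in TMM-scaled CPM on a log axis, with genes grouped by role; filled green marks are the 3 Bam-GFP libraries and open marks the 3 GFP control libraries, with 1 shape per replicate number. Filled and open marks overlap in all rows but *SmD1*, *Prp6* and *Prp19*, and *Sf3a2* spans 60.6-fold within Bam-GFP.

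Log2 fold changes (Bam-GFP over GFP control) ran from −2.04 to 0.76, with a median of −0.10 beside −0.05 for all genes tested. They were positive for 13 members (39.4%, beside 47.8% of all genes) and negative for 20. In 19 members the log2 fold change was smaller than 0.5 in size, and in 30 smaller than 1. The standard errors, 0.31 to 0.92 with a median of 0.40, exceeded the fold change itself in 16 members. The smallest change with an unadjusted p under 0.05 was 0.74 in size and the largest without was 1.03, since the standard errors differ between members. Within Bam-GFP the highest library was more than 2 times the lowest in 20 members, against 7 members within GFP control. The same count was not made over all genes, so it cannot show whether this is particular to these transcripts. Of the Bam-GFP libraries, replicate 1 was the lowest in 15 members and the highest in 14, replicate 2 the lowest in 5 and the highest in 11, and replicate 3 the lowest in 13 and the highest in 8.

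**Figure D2:**
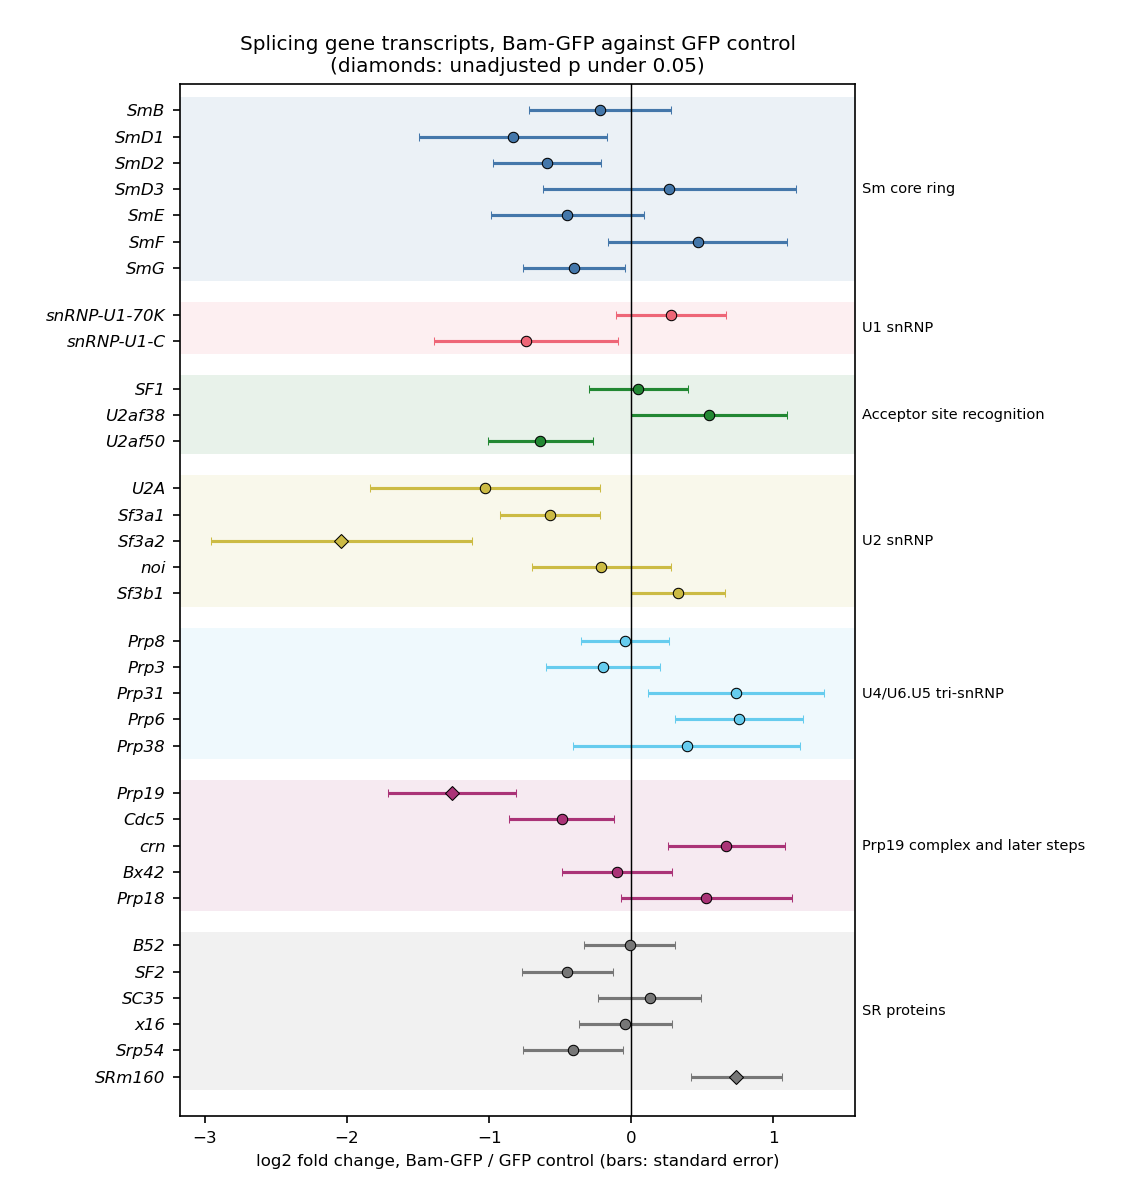
Log2 fold change of each splicing gene transcript, Bam-GFP over GFP control, with its standard error as a bar (edgeR, 3 libraries a group); diamonds mark an unadjusted p under 0.05 and shading the role groups. The values run from −2.04 (*Sf3a2*) to 0.76 (*Prp6*), and only *Sf3a2*, *Prp19* and *SRm160* are drawn as diamonds.

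The Sm proteins form a ring of 7 around the U1, U2, U4 and U5 snRNAs. Their transcripts had a median log2 fold change of −0.40, with 5 of 7 negative and 0 at an unadjusted p under 0.05. *SmD1* (FBgn0261933, chromosome 3L, 12733364 to 12734611 of the Release 6 assembly) had the change largest in size of this role. It was measured at 7.22, 18.4 and 15.0 CPM in Bam-GFP and at 24.5, 20.0 and 23.4 CPM in GFP control. Each Bam-GFP library was thus below each control, yet the distance from 18.4 to 20.0 CPM is small, and its log2 fold change of −0.83 (SE 0.66) had an adjusted p of 0.866 in edgeR. No annotated gene overlaps its span.

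*SmF*, the smallest gene of the set by genomic span (467 bp), had the widest SDs of this role in both groups. It was at 167, 75.0 and 19.7 CPM in Bam-GFP and at 34.7, 32.4 and 127 CPM in GFP control, so that replicate 3 was the lowest library of one group and the highest of the other. Its log2 fold change of 0.47 (SE 0.63) rose to 1.74 without replicate 3, with an edgeR adjusted p of 0.0135, and was −0.74 at the other end of the alternatives. *SmD3*, the member with the fewest CPM over all 6 libraries, gave 17.5, 5.94 and 6.72 CPM in Bam-GFP and 8.62, 14.5 and 3.42 CPM in GFP control. The groups overlapped throughout, and its log2 fold change of 0.27 had an SE of 0.89.

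The other Sm transcripts overlapped between groups as well. *SmB* averaged 34.8 ± 21.7 CPM in Bam-GFP and 36.6 ± 7.62 CPM in GFP control (SD, n = 3, as for the means that follow). *SmE* averaged 27.8 ± 13.4 and 35.1 ± 7.39 CPM. *SmD2*, at 76.6 ± 34.5 and 109 ± 24.4 CPM, had a log2 fold change of −0.59 (SE 0.38). *SmG* was at 85.6 ± 23.7 and 110 ± 10 CPM, a log2 fold change of −0.40 (SE 0.36). By log2 fold change the order of the ring was thus *SmD1*, *SmD2*, *SmE*, *SmG*, *SmB*, *SmD3* and *SmF* from low to high, with neighbours closer than their standard errors. *SmF* and *SmD3* lie with *Prp8* within 30053 bp of chromosome 2R.

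In the U1 snRNP, which recognises the 5′ splice site, the transcripts of both members had log2 fold changes of opposite sign, with no test passed. *snRNP-U1-C* (FBgn0261792, 3R, 18982964 to 18983650) stabilises the pairing of U1 with the splice site. It was found at 7.22, 21.5 and 20.1 CPM in Bam-GFP and at 28.6, 9.03 and 49.8 CPM in GFP control. Replicate 2 of the control lay below 2 of the Bam-GFP libraries, and the log2 fold change was −0.74 (SE 0.65). *snRNP-U1-70K*, the protein that contacts SR proteins, averaged 92.4 ± 43.9 CPM in Bam-GFP and 71.0 ± 10.2 CPM in GFP control, a log2 fold change of 0.28 (SE 0.39).

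Of the 3 factors that read the 3′ end of the intron, *U2af50* had the change largest in size. It encodes the large U2AF subunit, which binds the polypyrimidine tract (FBgn0005411, X, 16356696 to 16359039). Its values were 46.8, 102 and 65.8 CPM in Bam-GFP and 79.8, 182 and 81.9 CPM in GFP control. Replicate 2 was the highest library in both groups, and the Bam-GFP value of 102 CPM exceeded 2 of the controls. Its log2 fold change of −0.64 (SE 0.37) had an unadjusted p of 0.0835 and an edgeR adjusted p of 0.656. The small subunit, *U2af38*, which reads the AG at the acceptor site, pointed the other way with 33.6 ± 11.6 CPM in Bam-GFP against 22.5 ± 5.45 CPM (log2 fold change 0.55, SE 0.55). *SF1*, which binds the branch point first, stood at 115 ± 36.2 and 110 ± 22.5 CPM, a log2 fold change of 0.05 that became −0.18 with library size only.

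The U2 snRNP had the lowest median of the 7 roles, −0.57, with 4 of 5 log2 fold changes negative. *Sf3a2*, a subunit of the SF3a trimer that anchors U2 at the branch point, had the change largest in size of all members in the fit with the replicate block. It lies on chromosome 3L, 12813028 to 12814019 (FBgn0036314). Its raw counts were 3, 156 and 50 in Bam-GFP and 171, 144 and 128 in GFP control. In CPM this was 0.318, 19.3 and 4.20 against 16.2, 16.9 and 13.7. Bam-GFP replicate 2 was thus the highest of all 6 libraries and replicate 1 the lowest by far, while the controls were close to each other. The log2 fold change was −2.04 (SE 0.92, unadjusted p = 0.0269, edgeR adjusted p = 0.374). Without the block it was −0.98, and *Prp19* was larger in size at −1.11. Without replicate 1 or without replicate 3 of both groups, with no block, with edgeR's filter on low counts or with totals that also hold multi-mapped reads, the unadjusted p was no longer under 0.05, and over all alternatives the log2 fold change ran from −3.46 (without replicate 2 of both groups) to −0.42 (without Bam-GFP replicate 1 alone, with no block). Its span overlaps *Sap130*, at 0.60 (SE 0.41).

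The further subunits of the trimer were more even. *Sf3a1* averaged 88.3 ± 26.4 CPM in Bam-GFP and 130 ± 32.1 CPM in GFP control (log2 fold change −0.57, SE 0.35). *noi*, the fly SF3a3, was at 39.7 ± 20.3 and 41.2 ± 3.36 CPM (−0.21, SE 0.49). *U2A*, which sits on the U2 snRNA, had its lowest value in the same library as *Sf3a2*, with 1.70, 12.9 and 13.9 CPM in Bam-GFP and 13.3, 12.2 and 19.4 CPM in GFP control. Replicate 1 of Bam-GFP alone stood apart, and the log2 fold change was −1.03 (SE 0.81). *Sf3b1*, the largest SF3b subunit, which clamps the branch point helix, was the exception in sign, with 191 ± 59.5 against 149 ± 35.0 CPM (0.33, SE 0.33).

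The tri-snRNP had the highest median of the roles, 0.39, with 3 of 5 positive and 0 past an unadjusted p of 0.05. *Prp8*, the U5 protein that cradles the catalytic RNA, had the most CPM of all members. It lies on 2R, 12154258 to 12162998 (FBgn0033688), and gave 1228, 1246 and 1885 CPM in Bam-GFP and 1635, 1308 and 1476 CPM in GFP control. The groups overlapped, and the log2 fold change of −0.04 had the smallest standard error of the set, 0.31. The sign turned with totals that also hold multi-mapped reads, which gave 0.07.

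*Prp6*, which bridges U5 and U4/U6 (FBgn0036828, 3L, 18905372 to 18908974), was the only member with each Bam-GFP library above each control. It was at 59.3, 42.3 and 79.8 CPM in Bam-GFP and at 28.6, 40.6 and 35.7 CPM in GFP control, so that replicate 2 of both groups differed by less than 2 CPM. Its log2 fold change of 0.76 (SE 0.45) had an unadjusted p of 0.0902 and an edgeR adjusted p of 0.681, and ran from 0.53 to 1.11 over the alternatives. Both genes that overlap it, *COX6AL2* and *Ir75d*, had no count in any library, though reads in an overlap may have been left out of the counts. *Prp31*, a U4/U6 protein, was near it at 0.74 (SE 0.62), with 27.2 ± 14.3 and 15.4 ± 4.89 CPM. *CG7011*, which overlaps *Prp31*, was at −1.55 (unadjusted p = 0.0290).

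*Prp3*, its partner on U4/U6, averaged 67.0 ± 12.2 CPM in Bam-GFP and 76.3 ± 7.88 CPM in GFP control, a log2 fold change of −0.20 (SE 0.40). *Prp38*, needed to activate the assembled spliceosome, had few reads, at 15.9 ± 12.9 and 10.6 ± 6.06 CPM (0.39, SE 0.80). With replicates left out in turn its log2 fold change crossed zero, from −0.54 to 1.21.

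The lowest p of all members belonged to *Prp19*, the ubiquitin ligase that gives its complex the name (FBgn0261119, 2R, 18447361 to 18451041). It was at 14.3, 47.0 and 33.5 CPM in Bam-GFP and at 69.7, 67.4 and 68.2 CPM in GFP control. The 3 controls lay within 3 CPM of each other and every Bam-GFP library was below them, by the least in replicate 2. The log2 fold change was −1.26 (SE 0.45, unadjusted p = 0.00508, edgeR adjusted p = 0.138). Adjusted p-values ran from 0.0828 to 0.842 over the other scalings, filters and tools, the fit without the block, the span offset and the omission of each replicate number, and leaving out Bam-GFP replicate 2 alone, with no block, gave −1.51 and an adjusted p of 0.0390. Without replicate 1 of both groups the log2 fold change was −0.77 and the unadjusted p above 0.05. The genes that overlap it, *Lamtor2* and *CG30120*, had no count in any library, though reads in an overlap may have been left out of the counts.

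The other members of this role, which covers the Prp19 complex and later steps, had log2 fold changes smaller in size than that of *Prp19*. Their distance from it was not tested. *Cdc5*, which binds Prp19 directly, averaged 77.9 ± 17.2 CPM in Bam-GFP and 110 ± 32.1 CPM in GFP control (log2 fold change −0.49, SE 0.37). *crn*, the scaffold protein Crooked neck, was positive at 0.67 (SE 0.41), with 75.9 ± 21.3 and 48.4 ± 17.3 CPM. *Bx42*, the fly SKIP, stood at 74.8 ± 16.5 and 80.0 ± 15.7 CPM (−0.10, SE 0.39), and this sign turned to 0.02 with totals that also hold multi-mapped reads. *Prp18*, a factor of the last catalytic step, had 29.2 ± 14.1 and 21.1 ± 14.2 CPM (0.53, SE 0.60). With 2 positive and 3 negative, the role had a median of −0.10.

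Among the SR proteins, *SRm160* was the only one with an unadjusted p under 0.05. Its human counterpart is a coactivator that bridges splicing factors and stays with the exon junction complex (FBgn0036340, 3L, 13036821 to 13040976). It was measured at 487, 249 and 415 CPM in Bam-GFP and at 215, 186 and 268 CPM in GFP control. Replicate 2 of Bam-GFP lay below replicate 3 of the controls, and the remaining Bam-GFP libraries above all of them. The log2 fold change was 0.74 (SE 0.32, unadjusted p = 0.0190, edgeR adjusted p = 0.313), and it stayed between 0.52 and 1.02 in all alternatives run. The unadjusted p was no longer under 0.05 without replicate 1, without replicate 2, with library size only or, with no block, without any one of Bam-GFP replicates 1 and 3 and GFP control replicates 1 and 2. No annotated gene overlaps its span.

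*B52*, with the most CPM after *Prp8*, is an SR protein with many known targets in flies. It averaged 400 ± 179 CPM in Bam-GFP and 403 ± 196 CPM in GFP control, and its log2 fold change of −0.01 (SE 0.32) changed sign with 3 of the alternatives in scaling or tool, each by less than 0.2. *SF2*, the fly counterpart of SRSF1, had 231 ± 83.0 and 311 ± 95.3 CPM (−0.45, SE 0.32). *Srp54* was at 95.7 ± 32.1 and 127 ± 40.8 CPM (−0.41, SE 0.35). *SC35*, the counterpart of SRSF2, averaged 127 ± 49.0 and 110 ± 15.1 CPM (0.13, SE 0.36, and −0.10 with library size only), and *x16* 155 ± 34.1 and 157 ± 25.3 CPM (−0.04, SE 0.33, and 0.09 with totals that also hold multi-mapped reads). These 5 values are all within 1.5 standard errors of zero.

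How far the values moved with the processing differed between members. Over the 17 alternatives, 15 of the 33 members kept the sign of their log2 fold change and 18 changed it at least once, in 54 of 560 pairs of member and alternative. *SRm160*, *Prp6* and *Prp31* stayed positive and *Prp19*, *Sf3a2*, *SmD1* and *U2A* negative throughout. *SmF* had a range from −0.74 to 1.74, and *Prp38* from −0.54 to 1.21.

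**Figure D3:**
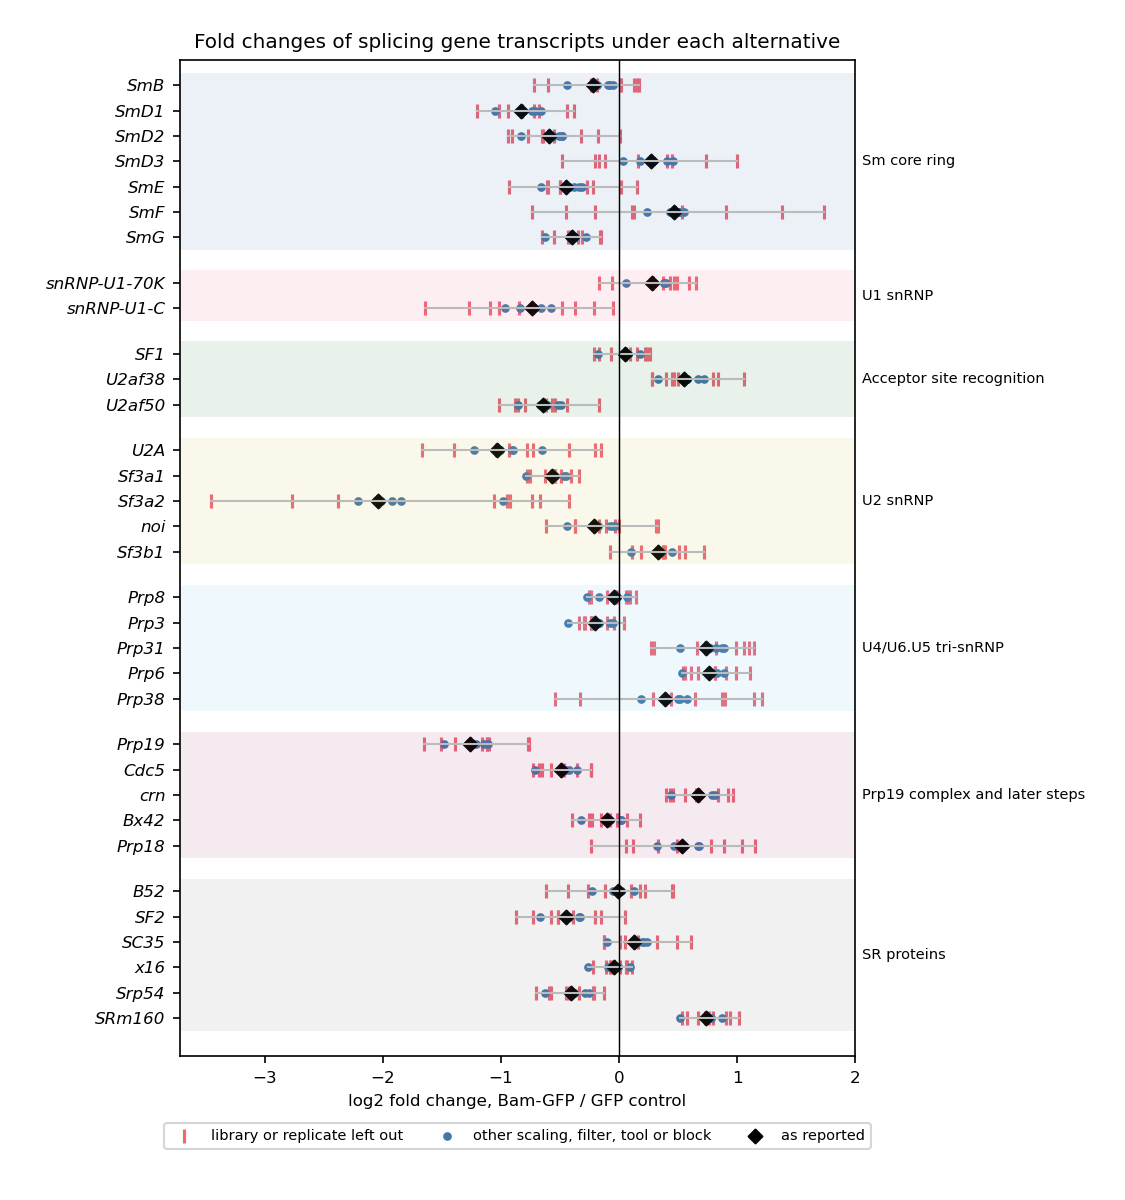
Log2 fold change of each splicing gene transcript as reported (black diamonds), with another scaling, filter, tool or block (blue points) and with a replicate or library left out (red ticks); grey lines join the lowest and highest value. *Sf3a2* covers the widest range, and 15 of 33 members stay on one side of zero.

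Other genes of the pathway were read from the same fit. Of 40 further spliceosome components found by name, 38 had counts. Their median log2 fold change was 0.27, with 24 positive and 14 negative, against −0.10 for the 33 genes, and this distance was not tested. Of all genes tested, 5.54% were higher and 4.03% lower at an unadjusted p under 0.05, and 1.72% and 0.474% after adjustment. Of these 38, 4 were higher and 1 lower unadjusted, and after adjustment 0 were higher and 1 was lower. That gene was *Sf3b6*, which encodes the SF3b subunit that touches the branch point adenosine, at 28.7, 85.9 and 41.3 CPM in Bam-GFP and 149, 127 and 176 CPM in GFP control. All Bam-GFP libraries were below all controls. *Sf3b6* fell by 1.69 on the log2 scale, a log2 fold change of −1.69 (SE 0.38, edgeR adjusted p = 0.00121). It passed in 15 of 17 alternatives, and not without replicate 1 (−1.33, adjusted p = 0.136) or without replicate 3 (−1.46, adjusted p = 0.0507).

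The 4 higher ones, named here after their values were seen, were *Sf3b3* (0.82), the U5 component *Dim1* (1.56), *Prp16* (0.89), a helicase of the last catalytic step, and *Cwc25* (0.69). Their edgeR adjusted p-values ran from 0.308 (*Sf3b3*) to 0.488 (*Cwc25*). *Dim1* had few reads, at 24.4 ± 18.5 CPM in Bam-GFP and 6.91 ± 0.901 CPM in GFP control, with all Bam-GFP libraries above all controls. The count of 4 became 0 with library size only, 2 with either filter on low counts, 2 without replicate 1 or without replicate 3 and, with no block, 1, 9 and 2 without Bam-GFP replicate 1, 2 and 3 in turn.

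The 19 other SR and heterogeneous nuclear RNP (hnRNP) regulators were split evenly, 9 positive and 10 negative with a median of −0.03, and 0 passed the adjusted test. Their lowest p belonged to *Saf-B*, a scaffold attachment factor that binds RNA, with 302 ± 120 CPM in Bam-GFP and 155 ± 28.7 CPM in GFP control (log2 fold change 0.89, SE 0.32, edgeR adjusted p = 0.149). *ps* (pasilla, a regulator of alternative exons) was at 0.62, with an adjusted p of 0.529 in edgeR.

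For comparison, 10 of 12 exon junction and nonsense decay genes were positive (median 0.26), beside 47.8% of all genes tested. Their summed CPM overlapped between groups, at 2488, 1378 and 2089 in Bam-GFP and 1310, 1283 and 1501 in GFP control. After adjustment 1.72% of all genes were higher, and 1 gene of this list. This was *nonC*, the fly Smg1 kinase, at 247, 151 and 427 CPM in Bam-GFP and 144, 106 and 75.9 CPM in GFP control. The groups did not overlap. *nonC* rose by 1.24 (SE 0.33, edgeR adjusted p = 0.0140), a call that held in 8 of 17 alternatives and was lost, among others, without replicate 3 (0.64, adjusted p = 0.670) or without replicate 2 (1.63, adjusted p = 0.0814). Of 7 small nucleolar RNP proteins 5 were positive (median 0.31), led by *Nop56* (0.49), *Fib* (0.39) and *nop5* (0.32), and 0 had an unadjusted p under 0.05. Of 85 cytoplasmic ribosomal protein genes with counts, 72 were negative (median −0.29), beside 5725 of all 10971 genes tested. Their summed CPM overlapped between groups, at 30631, 52474 and 13655 in Bam-GFP and 28365, 51295 and 19765 in GFP control. At an unadjusted p under 0.05 in edgeR, 12 were lower and 1 was higher, beside 4.03% and 5.54% of all genes. After adjustment 0.474% of all genes were lower, and of this list only *RpL23A* passed (−1.55, SE 0.33, edgeR adjusted p = 0.000400). It passed in 11 of 17 alternatives and not without the replicate block (−1.25, adjusted p = 0.0810). *RpL23A* was at 67.6, 335 and 71.5 CPM in Bam-GFP and at 319, 593 and 215 CPM in GFP control, so that the groups overlapped.

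**Figure D4:**
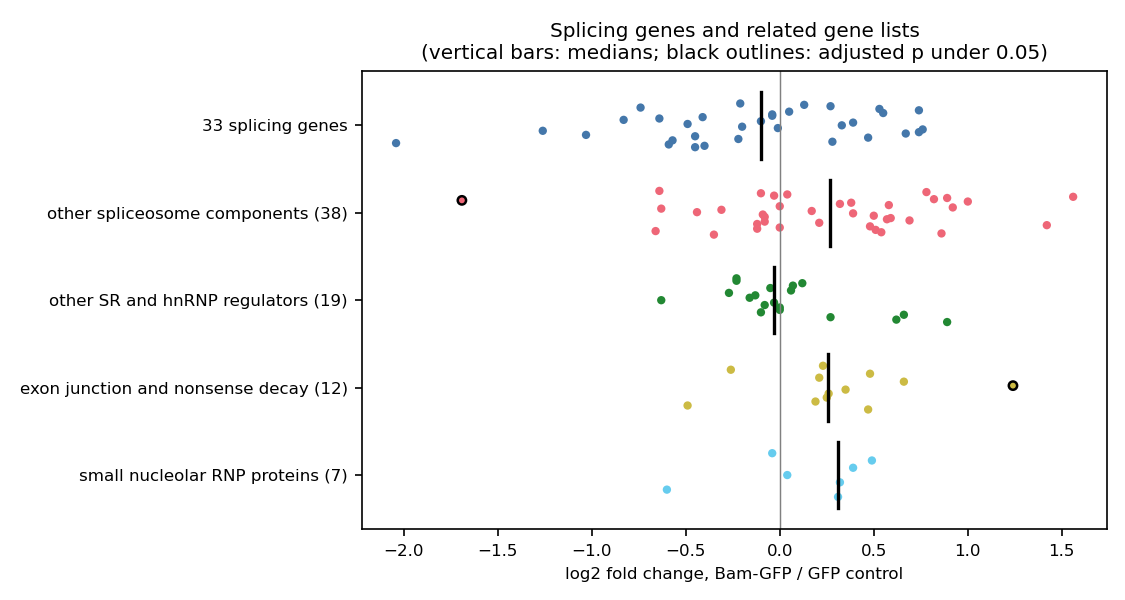
Log2 fold changes, Bam-GFP over GFP control, of the 33 splicing genes and of 4 related lists, 1 point per gene, with the median of each list as a black bar and black outlines for an edgeR adjusted p under 0.05. The medians are −0.10, 0.27, −0.03, 0.26 and 0.31 from top to bottom, and only *Sf3b6* and *nonC* carry an outline.

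Fold changes went with gene size among the genes with enough counts, so the spans are given beside them. The 33 genes are compact, with genomic spans from 467 to 8741 bp (introns included, since transcript lengths were not used here). The 16 members with a span of up to 2134 bp had a median log2 fold change of −0.31, with 6 positive, and the 17 from 2205 bp upwards one of −0.04, with 7 positive. Among all genes that reached 10 counts in each library, the 2252 below 2205 bp had a median of −0.19 (38.8% positive) and the 4007 others one of 0.02 (51.6% positive). The correlation of span and log2 fold change over the 33 members was 0.24 (Pearson, on log10 span) and 0.28 (Spearman), and over 6259 genes 0.23 (Spearman). These describe genes that share the same 6 libraries. With an offset for this trend, *Bx42* changed sign (0.02), and the counts of members at an unadjusted p under 0.05 were again 1 higher and 2 lower.

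**Figure D5:**
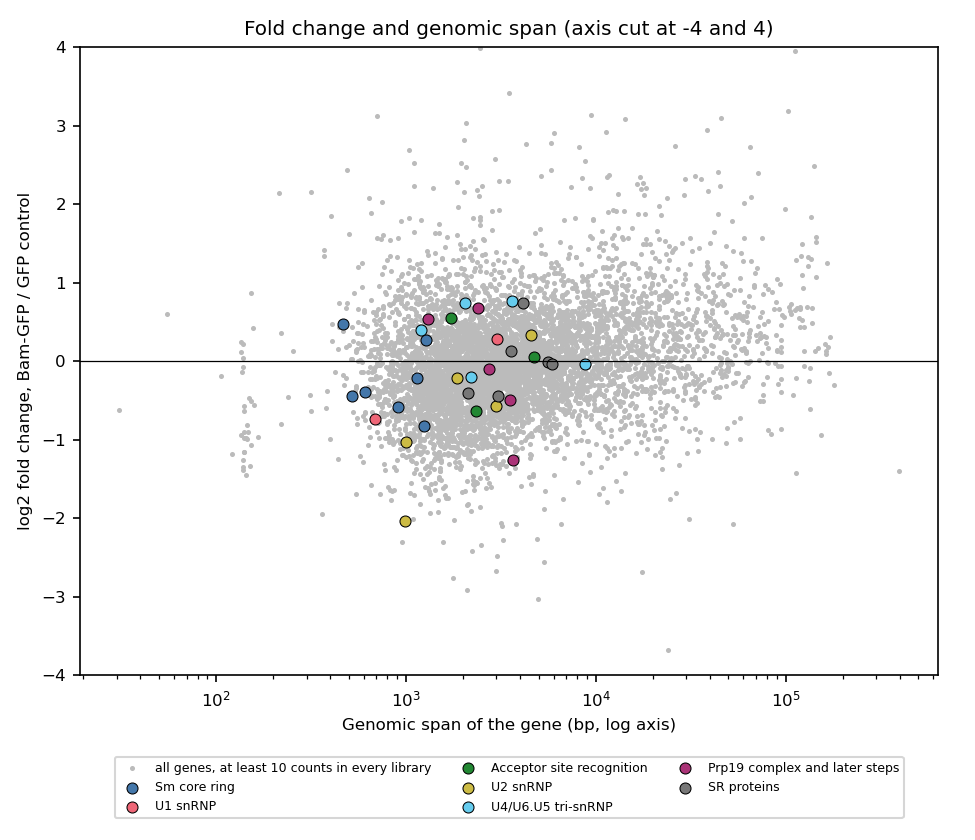
Log2 fold change, Bam-GFP over GFP control, against the genomic span of the gene in bp (log axis) for genes that reached 10 counts in each library (grey) and the 33 splicing genes coloured by role; values beyond the axis are not drawn. The splicing genes lie between 467 and 8741 bp, and the lowest of them, *Sf3a2*, is among the shorter ones.

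The pull-downs came from whole ovaries, and in such bulk samples fewer cells of a type and less RNA per cell cannot be told apart. Input RNA was not analysed here, so that more RNA in the lysate and more RNA on the beads cannot be told apart either. Markers of follicle cells, the somatic cells around the germ cells, were higher in Bam-GFP: 11 of 12 had a positive log2 fold change (median 1.48), 9 passed the adjusted test, and their sum was 8341 to 20792 CPM against 3638 to 6805 CPM. Germline markers summed to 5566 to 8227 CPM in Bam-GFP and 4806 to 6623 CPM in GFP control, with 6 of 10 positive and *osk* the only one past the adjusted test. Muscle sheath markers summed to 852 to 2133 and 836 to 1254 CPM (3 of 9 positive), those of hemocytes and fat body to 289 to 576 and 183 to 266 CPM (4 of 6 with counts positive, *NimC1* and *Fbp2* at 0, and *Col4a1* with 273 to 548 and 171 to 247 CPM nearly the whole sum), and those of escort and niche cells to 2.76 to 4.96 and 3.41 to 11.2 CPM (3 of 5 with counts positive, *en* at 0). The part of these cells in the values of the splicing transcripts was not tested.

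Of the 33 genes, 19 overlap another annotated gene in their span and 14 do not. The strand setting of the counting is not given in the sources used here, so reads of overlapping genes may have been left out or assigned to the wrong partner. Of 29 overlapping genes in the table, 8 had no count, which alone does not show that they are silent. Another 2 had an unadjusted p under 0.05 in edgeR: *CG7011*, given above with *Prp31*, and *CG32829*, which overlaps *x16* (2.74, unadjusted p = 0.0215). The 33 genes are spread over chromosomes 2L (8), 2R (6), 3L (7), 3R (8) and X (4).

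For the sorted germ cells, the authors' mean normalized count over all 6 RNA-seq libraries was available for the 17 listed genes, with no spread and no value per genotype. It was highest for *B52* (33660) and *Prp8* (23330), followed by *SF1* (9010), *SmG* (8040) and *U2af50* (7480). It was lowest for *Prp18* (613.6), *Prp38* (1534) and *snRNP-U1-C* (1626). Beside the median of 1357 over all 6555 genes listed, 16 of the 17 lay above. Lengths were not taken into account, so that the order among genes is that of reads and not of molecules. The other 16 members, *SRm160*, *Prp19*, *Sf3a2* and *Prp6* among them, were not listed, and since genes outside that selection can be expressed, nothing is said of their level.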

How the data were processed

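RNA-seq (3 bam-/- and 3 vas-GFP samples of sorted cells) and RIP-seq (3 Bam-GFP and 3 GFP control libraries) were grouped by the strain in the labels. The authors aligned reads with STAR 2.4.0 to the FlyBase genome and counted them per gene with HTSeq 0.11.0. Their deposited RIP-seq table holds raw counts per gene and library, which were used here, beside a fold change and p-value of their paired test, which were not. Another 5 lines of it name no gene, hold 80.4 to 90.2% of all its counts, mostly alignments to several places, and were left out. These are shares of counts and not of reads, for which the paper gives higher rates of unique mapping. Library totals that also hold multi-mapped reads are likewise totals of counts. The authors' deposited RNA-seq table holds a mean normalized signal over all libraries (DESeq2 1.14.0), printed as their mean, and their log2 fold change, its error, statistic and p-values, which were not used. RIP-seq columns are named Bam or WT with a number, as the RNA-seq samples are titled, and were read as the RIP groups of these names, with WT as GFP control.

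Genes with at least 1 count (10971, with 6766 at 0) were scaled with TMM (factors 0.8073 to 1.13) and fitted with edgeR 4.0.16 (R 4.3.3), quasi-likelihood, robust, replicate number as a block as in the study's paired test, Benjamini-Hochberg over all genes. As a check, the deviations of same-numbered libraries from their group means were correlated over 6335 genes (−0.15, 0.23 and −0.051), which gave no consistent sign of pairing. The SE is the log2 fold change over the root of F. The fit was tested on simulated data. Plots were drawn with matplotlib 3.10.9, and tables made with pandas 2.3.3 and SciPy 1.17.1 under Python 3.11.15. Names were matched for 17599 identifiers through the RefSeq annotation of Release 6, *SmG* by hand as *SNRPG*, and 3 list names found no match. Pearson correlations of log2 CPM between libraries were 0.8945 to 0.9336 within Bam-GFP, 0.9003 to 0.9505 within GFP control and 0.8383 to 0.9437 between groups. The depth limits precision, with 3 to 22430 counts per member and library.

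All 33 members are named, with means or with values per library. Values per library are given for members with an unadjusted p under 0.05 or groups that do not overlap, for the largest change in each role, and for the most and least abundant member (*SmF* and *U2A* were added after their values were seen). Of the other lists, genes with an adjusted p under 0.05 are named, otherwise the 3 with the lowest p, of which 1 is not reported here. The members and lists were chosen with earlier results of these data known. Alternatives were RLE size factors, library size only, totals with reads aligned to several places, DESeq2 1.42.0, 2 filters on low counts, no block, and replicates left out.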

Additional observations from a re-analysis of the deposited data

How the results depend on the processing

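No member passed the adjusted test, and this count stayed at 0 in all alternatives but the omission of replicate 3 (1, *SmF*, edgeR adjusted p = 0.0135) and that of Bam-GFP replicate 2 alone (1, *Prp19*, adjusted p = 0.0390), a range of 0 to 1 over omissions. Members with a positive log2 fold change numbered 13, and 11 to 17 over all alternatives. At an unadjusted p under 0.05, the 1 higher member became 0 with library size only and 0 to 2 with replicates or libraries left out. The 2 lower members became 6 with library size only, 1 with totals that also hold multi-mapped reads, 1 with edgeR's filter on low counts, 1 with a floor of 10 counts in each library (where *Sf3a2* was not tested) and 1 to 3 with replicates or libraries left out. The median log2 fold change of all genes moved from −0.05 to −0.26 with library size only and to 0.07 with totals that also hold multi-mapped reads, and that of the members from −0.10 to −0.32 and 0.02. Causes were not tested.

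Signs turned for *SF1* (−0.18) and *SC35* (−0.10) with library size only, for *Prp8* (0.07), *Bx42* (0.02), *B52* (0.13) and *x16* (0.09) with totals that also hold multi-mapped reads, for *B52* with RLE size factors (0.02) and DESeq2 (0.02), and for *Bx42* with the span offset (0.02). With replicates or libraries left out, log2 fold changes that changed sign ranged as follows: *SmB* −0.72 to 0.17, *SmD2* −0.94 to 0.01, *SmD3* −0.48 to 1.0, *SmE* −0.93 to 0.15, *SmF* −0.74 to 1.74, *snRNP-U1-70K* −0.17 to 0.65, *SF1* −0.21 to 0.26, *noi* −0.62 to 0.33, *Sf3b1* −0.08 to 0.72, *Prp8* −0.25 to 0.14, *Prp3* −0.34 to 0.04, *Prp38* −0.54 to 1.21, *Bx42* −0.40 to 0.18, *Prp18* −0.24 to 1.15, *B52* −0.62 to 0.46, *SF2* −0.87 to 0.05, *SC35* −0.13 to 0.61, *x16* −0.22 to 0.11 and *Cwc25* −0.06 to 1.34.

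The correlations of same-numbered libraries were of mixed sign and, with 3 libraries a group, cannot decide whether the numbers pair the samples. Without the replicate block, 1 member was higher, 2 were lower (*Prp19* and *U2af50*, no longer *Sf3a2*), 0 passed after adjustment and 13 were positive, while 790 and 566 of all genes were higher and lower at an unadjusted p under 0.05. The planned transcript length offset was not run. The offset on genomic span and the omission of single libraries (with no block) were chosen after seeing the data. With 3 libraries a group and a median SE of 0.40, moderate differences may be missed. The size within reach was not worked out and differs between members, whose SEs run from 0.31 to 0.92.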
